A study of Homo sapiens with 9 samples.

Results

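The kallikrein genes KLK1, KLK15, KLK3, KLK2 and KLK4 lie side by side on human chromosome 19. They are described here through every region of 6 deposited peak lists that touched chr19:51320000-51415000 of the hg19 genome build. These were 27 regions of 335291 in the 6 lists. The remaining part of the cluster, chr19:51415000-51590000, which holds KLK5 to KLK14, held 86 regions and serves as the comparison. The members were set by position and not by any measured value, but this choice was made with earlier results of these data known.

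The cells were LNCaP, an established and androgen-responsive human prostate cancer line, and ChIP-seq was made with antibodies against EZH2, H3K27ac and H3K27me3. The tested cells, shEZH2, were infected with a knockdown lentivirus against EZH2. The control cells carried plko.1, the vector used for such hairpins. Both were grown in RPMI with 10% FBS and fixed 2 to 3 days after infection. Each of the 6 groups held 1 library, so no test between shEZH2 and control was possible, and the intervals given are 95% intervals of counting error only. The hairpin sequence is not given in the sources used here, and the depth of knockdown cannot be read from peak lists. The EZH2 lists held 9493 peaks in shEZH2 and 23060 in control. The sample titles give EZH2(CST) for the control library and EZH2 alone for shEZH2. They do not show whether the same EZH2 antibody was used for both.

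Kallikreins are secreted serine proteases. KLK3 encodes prostate-specific antigen (PSA), which liquefies semen by cutting the semenogelins. KLK2 encodes the closely related hK2, which can activate the PSA precursor, and both genes are classical targets of the androgen receptor. KLK4 is also expressed in the prostate and degrades matrix proteins of developing enamel. KLK1 releases kinins from kininogen, and KLK15 can activate the PSA precursor in vitro. KLK5 and KLK7 act in the shedding of skin. EZH2 is the methyltransferase of the Polycomb complex PRC2, and its product H3K27me3 marks silenced chromatin. H3K27ac sits on the same residue at active promoters and enhancers. The title of the series names gene activation by EZH2 outside Polycomb as its question.

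RefSeq (GRCh38.p14) orders the genes as KLK1, KLK15, KLK3, KLK2, KLK4, followed by KLK5 to KLK14. It places the long noncoding RNA gene KLK3e between KLK15 and KLK3, and the pseudogene KLKP1 between KLK2 and KLK4. In hg19, KLK3 runs from 51358171 to 51364020 and KLK2 from 51376689 to 51383823. The other genes were placed only by their order, so a region beyond KLK3 or KLK2 is given by its distance from these genes. KLK3 and KLK2 are themselves markers of luminal prostate cells, and both genes lay wholly inside H3K27ac regions in both groups.

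An EZH2 peak of control cells lay on the promoter of KLK3, at -244 to -62 bases from the gene start, and the KLK2 promoter held none. The 250 bases before each gene start are shown because this peak sits on them and because the KLK3 and KLK2 promoters are near copies. Both are on the plus strand in RefSeq GRCh38.p14, KLK3 at chr19:50854665-50854914 and KLK2 at chr19:50873189-50873438. Capitals mark a match to GNACANNNNGTNC, a loose form of the androgen response element, searched on both strands.
KLK3: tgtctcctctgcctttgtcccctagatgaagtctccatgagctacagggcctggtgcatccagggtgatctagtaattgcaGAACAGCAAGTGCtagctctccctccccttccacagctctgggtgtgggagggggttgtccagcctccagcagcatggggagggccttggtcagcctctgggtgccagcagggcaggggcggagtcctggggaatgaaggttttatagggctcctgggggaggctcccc
KLK2: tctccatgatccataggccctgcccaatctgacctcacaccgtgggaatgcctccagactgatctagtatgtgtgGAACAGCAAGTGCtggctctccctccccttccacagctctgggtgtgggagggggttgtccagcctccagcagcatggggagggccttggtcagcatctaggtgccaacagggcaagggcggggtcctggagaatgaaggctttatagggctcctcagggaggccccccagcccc
The match lay at -169 to -157 from the KLK3 start and at -175 to -163 from the KLK2 start, and its letters were the same in both. The KLK3 match fell inside the EZH2 peak, taking distances from the gene start, which assumes the same start in both builds. KLK3 was 5850 bp long in both. The motif was written with the known KLK3 element in view. It was found in 769 of 35116 RefSeq promoter windows (2.19%, 250 bases before to 50 after the start). Of the 6 member windows it was found in 2, those of KLK3 and KLK2, and not in those of KLK15 or KLK4. None of 16 windows of KLK5 to KLK14 held it (9 of these genes matched). At a share of 2.19%, 16 windows are too few to read its absence there as a difference. A match is a description of letters and not a binding site.

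The KLK3 and KLK2 stretches were identical at 207 of 259 aligned columns (79.9%). Their longest shared run was 80 bases, at -154 to -75 from the KLK3 start, and all 80 lay inside the EZH2 peak. Reads that fall wholly within such a run cannot be placed on KLK3 or KLK2, and the handling of such reads is not given in the sources used here. The peak on the KLK3 promoter is therefore uncertain between the genes. CpG pairs were few at the member promoters. The 6 windows of KLK15, KLK3, KLK2 and KLK4 held 1 to 4 CpG each, with a median of 2.5, against 2 to 23 with a median of 10 at KLK5 to KLK14 and a median of 14 over all windows.

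**Figure D1:**
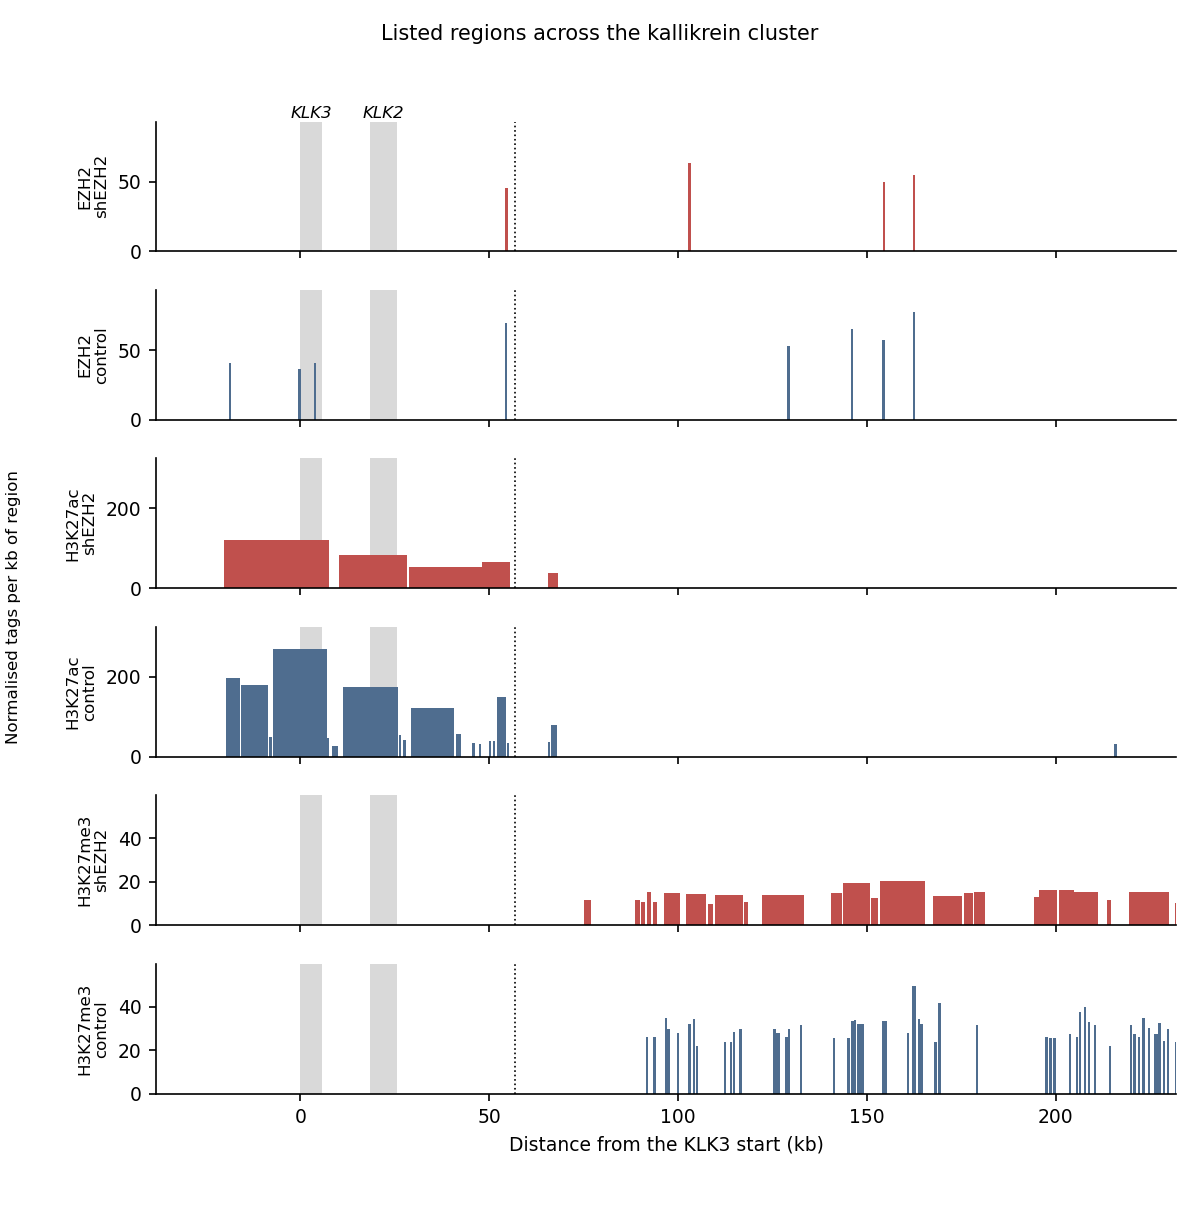
Listed regions of the 6 peak lists across the cluster, by distance from the KLK3 start (x axis, kb) and normalised tags per kb of region (y axis, own scale for each target), shEZH2 above control for each target. Grey bands are KLK3 and KLK2, the dotted line is the border at 51415000, and regions narrower than 0.6 kb are drawn 0.6 kb wide. H3K27ac was listed mostly on the left side and H3K27me3 only on the right side in both groups. H3K27ac began 20.1 kb before the KLK3 start in shEZH2 and 19.6 kb before it in control. H3K27me3 regions covered 58.7% of the right side in shEZH2 and 11.3% in control.

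The cluster was split between the marks in both groups, and the H3K27ac side ended at nearly the same place. The H3K27me3 side began at 51433237 in shEZH2 and at 51449890 in control. From upstream of KLK3 to the KLK4 side H3K27ac was listed and H3K27me3 was not. In the stretch that holds KLK5 to KLK14, H3K27me3 was listed and H3K27ac was nearly missing. H3K27ac regions covered 76.3% of the 95 kb kallikrein window in shEZH2 and 62.4% in control. In the 175 kb beyond it they covered 1.38% in shEZH2 and 1.15% in control. H3K27me3 regions covered 58.7% of those 175 kb in shEZH2 and 11.3% in control, and none of the kallikrein window in either group.

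The covered lengths are not comparable between the groups. Per the file headers, the shEZH2 lists of both marks were called with windows of 1000 bp at a Poisson probability of 0.001, and the control lists with windows of 150 bp at a false discovery rate of 0.001. The weakest H3K27me3 regions of the whole lists held 6.80 normalised tags per kb in shEZH2 and 16.1 in control, and H3K27me3 too weak to be called would go unlisted. The nearest H3K27me3 region to the left lay 34.5 kb outside the window in shEZH2 and 33.8 kb in control.

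Between the marks lay a gap without either. In shEZH2 the last H3K27ac region before H3K27me3 ended at 51426295 and the first H3K27me3 region began at 51433237, 6.94 kb further on. In control it ended at 51426105 and H3K27me3 began at 51449890, 23.8 kb further on. The H3K27ac edges differed by less than the 1000 bp window of the shEZH2 list. The wider gap in control came with the narrower calling window of the control list, whose part in it was not tested.

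By summed tags, which grow with region width, the H3K27ac regions over KLK3 and KLK2 were among the strongest of the control list. The control region chr19:51350982-51365279 ran from -7.19 kb of the KLK3 start to 1.26 kb past its end, and it held 3881.8 normalised tags. By tags it was number 14 of 58134 control regions. The control region chr19:51369614-51384055 ran from -7.08 kb of the KLK2 start to 0.232 kb past its end, held 2518.1 tags and was number 30. These regions were 14.3 and 14.4 kb wide, against a median of 428 bp over all control H3K27ac regions. Both genes were thus acetylated from upstream to the end of the gene body.

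Acetylation continued on either side of these genes. Upstream of KLK3 the control list held chr19:51342406-51349728 with 1312.1 tags and chr19:51338566-51342185 with 710.5 tags. The second of these began 19.6 kb before KLK3, on the side of KLK15 and KLK1. From the left edge of the window at 51320000 to the first H3K27ac region no list held a region. That region began at 51338038 in shEZH2 and 51338566 in control. KLK1, KLK15 and KLK4 were placed by order alone, so it was not determined whether listed H3K27ac reached these genes. Beyond KLK2, on the side of KLKP1 and KLK4, chr19:51387381-51398967 held 1426.2 tags. The region chr19:51410162-51412771, which began 26.3 kb past the KLK2 end, held 388.2 tags. The other 12 of the 18 control regions held 4.59 to 82.0 tags each.

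The shEZH2 list joined the same stretch into 4 regions. The first, chr19:51338038-51365676, held 3342.0 normalised tags, spanned KLK3 with 20.1 kb before it and was number 29 of 59233 in its list. The second, chr19:51368327-51386424, held 1518.3 tags and spanned KLK2. The third, chr19:51386903-51406292, held 1041.7 tags. The fourth, chr19:51406382-51413706, on the KLK4 side, held 482.1 tags. Of the 18 control regions 16 overlapped a shEZH2 region, against 97.0% of all control H3K27ac regions. The 2 others, chr19:51366858-51367051 and chr19:51367464-51368258 between KLK3 and KLK2, held 5.16 and 21.2 tags.

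**Figure D2:**
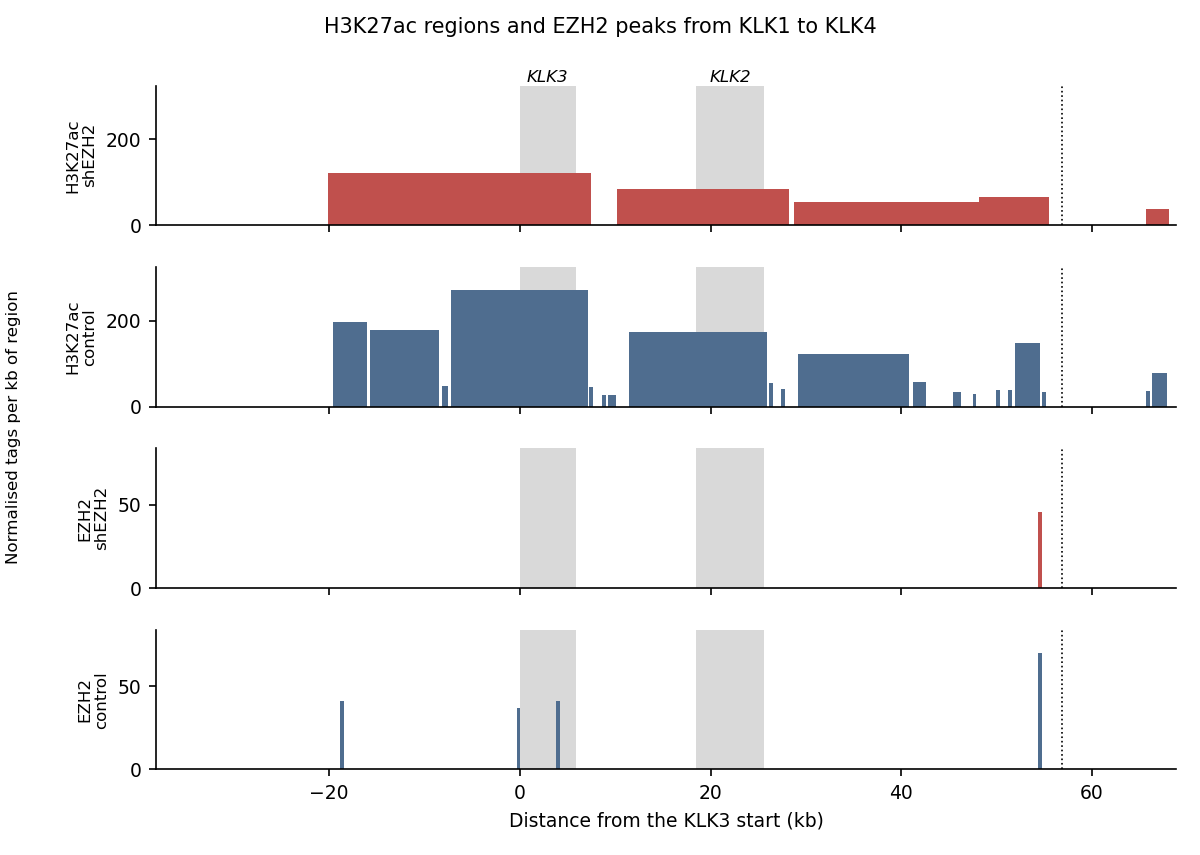
H3K27ac regions and EZH2 peaks of the kallikrein window by distance from the KLK3 start (x axis, kb), as normalised tags per kb of region (y axis, shared by both groups of a target), shEZH2 above control. Grey bands are KLK3 and KLK2, the dotted line is the right edge of the window, and narrow regions are drawn 0.4 kb wide. The highest bar, 271 tags per kb, is the control region over KLK3, where the shEZH2 region held 121 tags per kb.

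H3K27ac tags were lower in shEZH2 over KLK3 and KLK2 and over the stretch beyond KLK2. On the KLK4 side the direction depended on the scaling. Over the whole kallikrein window the listed regions held 6384 normalised tags in shEZH2 (counting interval 6279 to 6490) and 10465 in control (10313 to 10617). The log2 of shEZH2 over control was -0.71 (-0.74 to -0.68), or 1.64-fold lower in shEZH2. The shEZH2 regions were wider, so the tags per kb of listed region were further apart, at 88.1 in shEZH2 and 177 in control.

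To set like stretches side by side, touching regions of both lists were joined into loci, which gave 4 loci listed in both groups in the kallikrein window. The KLK3 locus, chr19:51338038-51365683, held 3342 tags in shEZH2 (3266 to 3419) and 5944 in control (5830 to 6059). Its log2 ratio was -0.83 (-0.87 to -0.79), so shEZH2 held 56.2% of the control tags. The KLK2 locus, chr19:51368327-51386424, held 1518 tags in shEZH2 (1467 to 1571) and 2535 in control (2461 to 2611), a log2 ratio of -0.74 (-0.80 to -0.67).

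The locus beyond KLK2, chr19:51386903-51406292, held 1042 tags in shEZH2 (1000 to 1085) and 1541 in control (1484 to 1601). Its log2 ratio was -0.57 (-0.65 to -0.48). The KLK4-side locus, chr19:51406382-51413706, held 482 tags in shEZH2 (454 to 512) and 418 in control (388 to 450), a log2 ratio of 0.21 (0.07 to 0.34). Summed tags were thus lower in shEZH2 at 3 loci and higher at the fourth. The fourth turned direction per kb of listed region, because listed regions there covered 7.33 kb in shEZH2 and 3.39 kb in control. Per kb they held 65.8 tags in shEZH2 and 123 in control, a log2 ratio of -0.90.

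Width cannot turn the direction at the first 3 loci. There the shEZH2 tags came from nearly the whole locus, while the control tags came from only 26.1 of 27.6 kb at the KLK3 locus, 14.8 of 18.1 kb at the KLK2 locus and 14.0 of 19.4 kb beyond KLK2. Control tags outside its listed regions were not counted, and would lower these ratios further.

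**Figure D3:**
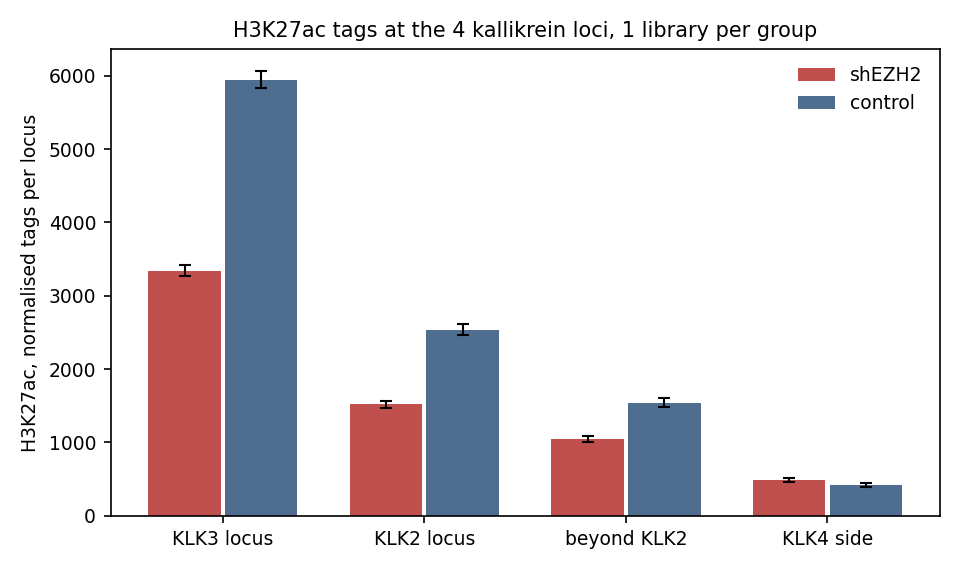
H3K27ac normalised tags (y axis, from 0) in each of the 4 kallikrein loci, shEZH2 left of control, 1 library per group. Bars are the summed tags of the listed regions and error bars the 95% exact Poisson interval of the counted tags. The KLK3 locus held 3342 tags in shEZH2 against 5944 in control, and the KLK4-side locus 482 against 418, an order that turns per kb of listed region (65.8 against 123).

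Few H3K27ac loci elsewhere had ratios this low. A log2 ratio of -0.5 or lower was found at 3 of the 4 kallikrein loci, against 2.10% of the 34954 loci listed in both groups and likewise 2.10% of the 2480 loci with at least 400 control tags. The 4 loci are neighbouring pieces of 1 acetylated stretch and not independent members. The step of -0.5 was chosen after seeing the data. The median log2 ratio was 0.53 over all loci and 0.06 over the 2480 loci. The KLK3 locus had the lowest ratio of the 11 loci with at least as many control tags, which had a median of -0.27 and a second lowest value of -0.39. Of the 57 loci with at least the control tags of the KLK2 locus, 1 was lower, and this was the KLK3 locus. Of the 168 with at least those of the locus beyond KLK2, 3 were lower, among them the KLK3 and KLK2 loci. With 1 library per group, it was not tested whether ratios this low also arise between libraries of 1 condition. The share of tags in listed H3K27ac regions was 59.0% in shEZH2 and 46.1% in control. Scaling to these tags shifts the log2 ratio of every locus by -0.35, to -1.19 at the KLK3 locus and -0.15 on the KLK4 side. What made the shares differ was not tested.

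**Figure D4:**
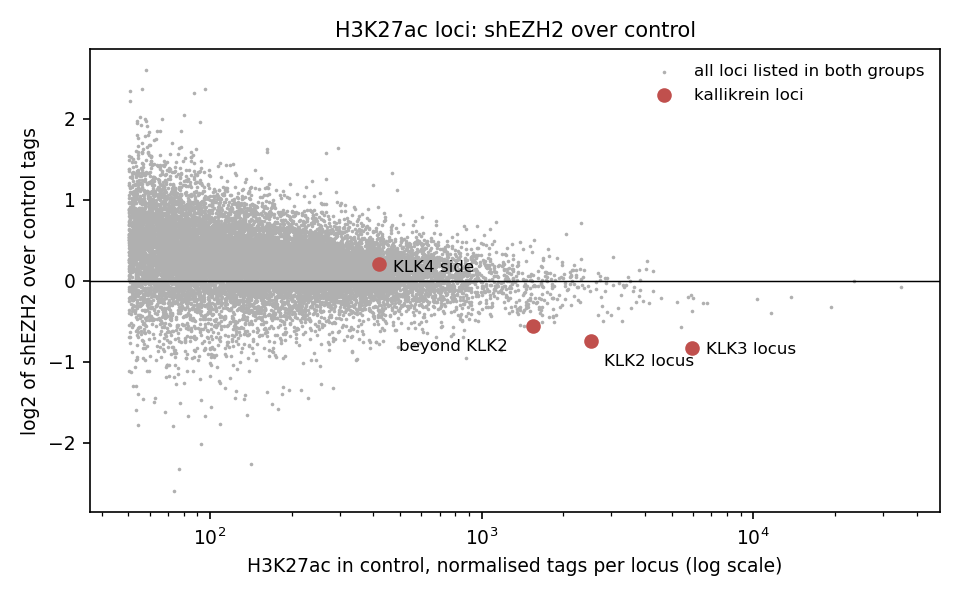
Log2 of shEZH2 over control H3K27ac tags (y axis) against control normalised tags (x axis, log scale) for loci listed in both groups with at least 50 control tags. Grey points are all such loci and red points the 4 kallikrein loci. The KLK3, KLK2 and beyond-KLK2 loci, at -0.83, -0.74 and -0.57, lie at the lower edge of loci of like strength, and the KLK4-side locus lies among the others at 0.21, which turns to -0.90 per kb of listed region.

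When H3K27ac was counted by gene, over every region that touched the gene body or its upstream 10 kb, the ratios were alike. The log2 ratio was -0.65 (-0.69 to -0.60) for KLK3 and -0.74 (-0.81 to -0.68) for KLK2. The KLK3 value rested on where the interval ended, because its shEZH2 region was counted whole. It was -0.22 with 5 kb and -0.83 with 20 kb upstream, and the KLK2 value was -0.40 with 20 kb upstream.

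EZH2 was listed at 1 weak peak among the kallikrein genes in shEZH2 and at 4 in control cells, all overlapping H3K27ac and none on H3K27me3. The peak chr19:51339454-51339636, at -18.7 kb from the KLK3 start, was not listed in shEZH2 and held 7.50 normalised tags in control. The peak on the KLK3 promoter, chr19:51357927-51358109, was not listed in shEZH2 and held 6.75 tags in control. The peak chr19:51362083-51362265, inside the KLK3 gene body from 3.91 kb after its start, was not listed in shEZH2 and held 7.50 tags in control. All 3 control peaks near KLK3 were thus missing from the shEZH2 list. The fourth peak, on the KLK4 side, was listed in both. It held 6.89 tags at chr19:51412689-51412839 in shEZH2 and 12.8 at chr19:51412642-51412824 in control.

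These peaks stood 8.58-fold above their local background in the shEZH2 list and 5.42-fold to 11.54-fold in the control list, by the authors' values. A call needed at least 4-fold. The tag minimum in the file headers, 10 in shEZH2 and 9 in control, equalled the lowest caller's score of each list, while the counted tags of a listed peak went down to 7 in both. The 3 control peaks near KLK3 had scores of 10, 9 and 11 and held 9 to 10 counted tags. The Poisson interval of the promoter peak was 3.09 to 12.8 normalised tags. Tags at these 3 sites in shEZH2 are not listed, so no ratio was computed for them. At the KLK4-side peak, 10 counted tags in shEZH2 and 17 in control gave a log2 ratio of -0.89 (-2.18 to 0.32), an interval that includes 0. The listed EZH2 peaks of the cluster were narrower in shEZH2 than in control, so part of this ratio can come from width. Per kb of peak this site held 45.6 normalised tags in shEZH2 and 69.9 in control. Over the window the listed EZH2 peaks held 6.89 tags in shEZH2 and 34.6 in control, but sites without a call were not counted, and the upper 50% of each list by score held 0 shEZH2 and 1 control peak of the window.

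Of the 4 control peaks 1 was called again in shEZH2, against 23.1% of all control EZH2 peaks and 18.6% of those on H3K27ac alone. Weak peaks were seldom called again anywhere. Of control peaks with 10 counted tags or fewer, 4.21% were, and of those with 17 tags, 24.6% (21.7 to 27.7). All 4 control peaks lay on H3K27ac, against 34.4% of all control EZH2 peaks, and none on H3K27me3, against 44.2%. In shEZH2 the 1 peak lay on H3K27ac, against 39.7% of that list, and not on H3K27me3, against 67.8%. No H3K27me3 region was listed in the window, so no EZH2 peak there could overlap one. H3K27ac regions covered 76.3% of the window in shEZH2 and 62.4% in control. These overlaps are therefore not read as a trait of the EZH2 peaks. No input library was used in the calls, and whether these few tags came from EZH2 or from open chromatin was not tested.

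**Figure D5:**
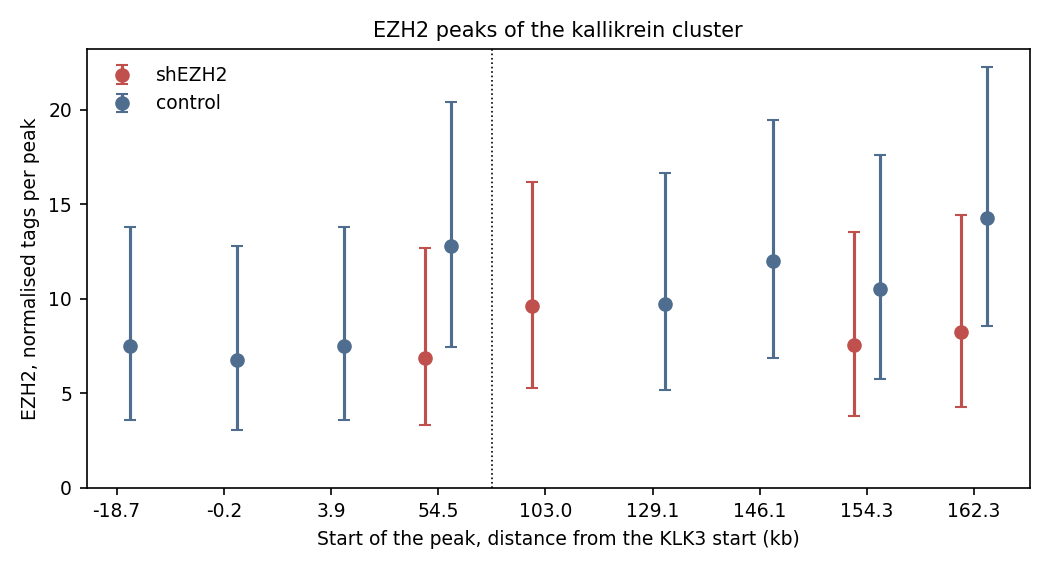
EZH2 normalised tags per peak (y axis, from 0) for every EZH2 peak of the cluster, ordered by distance from the KLK3 start (x axis, kb, not to scale), shEZH2 left of control. Points are single libraries, error bars 95% exact Poisson intervals, and the dotted line separates the kallikrein window from KLK5 to KLK14. The peaks were narrower in shEZH2 than in control, and the values are not corrected for width. The 3 peaks nearest KLK3 sit at 6.75 to 7.50, the lowest control values shown, and have no shEZH2 point because none was listed.

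In the stretch that holds KLK5 to KLK14, EZH2 lay on its own mark instead. All 3 shEZH2 peaks and all 4 control peaks there overlapped H3K27me3, against 67.8% of all shEZH2 and 44.2% of all control EZH2 peaks. None overlapped H3K27ac, against 39.7% in shEZH2 and 34.4% in control. By tags, the leading shEZH2 peaks were chr19:51461149-51461299 with 9.65 normalised tags and chr19:51520507-51520657 with 8.27. The leading control peaks were chr19:51520460-51520642 with 14.3 tags and chr19:51504222-51504404 with 12 tags. Of the 4 control peaks 2 were called again, against 31.1% of control peaks on H3K27me3 alone. The peak at 51461149 was listed in shEZH2 alone. H3K27me3 was unlisted in the kallikrein window, and H3K27ac covered only 1.38% of this stretch in shEZH2 and 1.15% in control. A division of the EZH2 peaks like that of the marks was therefore nearly fixed in advance and is not read as their trait. On the kallikrein side it rested on 1 peak in shEZH2.

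H3K27me3 in that stretch was listed as 25 regions with 1567 normalised tags in shEZH2 and 50 regions with 611 tags in control. Per kb of listed region it held 15.1 tags in shEZH2 and 30.9 in control. Sum and density thus point opposite ways, and with the different call settings no direction can be read from either. All 50 control regions overlapped a shEZH2 region, against 94.1% of all control H3K27me3 regions. The leading shEZH2 regions were chr19:51511668-51523503 with 238.2 tags and chr19:51577565-51588228 with 162.3. The leading control regions were chr19:51505451-51507403 with 62.8 tags and chr19:51520065-51521191 with 56.2, and the second of these carried the strongest EZH2 peak of the cluster.

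Nearly all H3K27ac left in that stretch lay next to the kallikrein window. The region chr19:51423884-51426295 held 89.3 tags in shEZH2. In control the matching regions chr19:51423938-51424156 and chr19:51424459-51426105 held 8.03 and 129.0 tags. Another control region, chr19:51573911-51574061, held 4.59 tags, and no shEZH2 region overlapped it. The log2 ratio of this locus was -0.62 (-0.90 to -0.34), like those of the loci around KLK3 and KLK2, and 116 of 9480 loci with at least as many control tags had a ratio as low or lower. Per kb of window, H3K27ac held 67.2 tags in the kallikrein window and 0.510 in the rest of the cluster in shEZH2, and 110 and 0.809 in control. The log2 of this difference between the windows was 7.04 (6.84 to 7.25) in shEZH2 and 7.09 (6.91 to 7.28) in control, so the intervals overlapped. With the border moved 10 kb to the left these values were 2.99 and 5.28. In shEZH2 the region chr19:51386903-51406292 then touched both windows and was counted in each. In control no region touched both, but the KLK4-side regions, such as chr19:51410162-51412771, then fell in the rest of the cluster.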

How the data were processed

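ChIP-seq libraries of EZH2, H3K27ac and H3K27me3 from shEZH2 and control LNCaP cells were grouped by their titles, with 1 library per group. The 3 other samples were not analysed here. The submitters' processing notes name BWA 0.6.1, HOMER 4.1 and the build hg19. Per the file headers, each library was called alone, without input, and held 14514395 (shEZH2) and 13331155 (control) tags for EZH2, 22175405 and 17438009 for H3K27ac, and 26241104 and 33289172 for H3K27me3. Per the labels, chromatin was fixed with 1% paraformaldehyde and sheared to 200 to 500 bp.

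The deposited signal is a tag count per region, which the authors normalised to a library of 10000000 tags. Counted tags were recovered from it, and values below 100 tags came out whole within the rounding of the file in 100% of cases. The deposited score was used only to rank peaks within a list. The authors' fold over local background is quoted for EZH2 peaks. The deposited clonal fold, focus fraction and local p-value were not used. The deposited region width was replaced by end minus start plus 1.

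Regions belonged to a window if they shared at least 1 bp with it. Intervals are exact Poisson for tags and exact binomial (Clopper-Pearson) for shares and for ratios of tags. Tags are not all independent molecules, so intervals cover counting error only. No p-value was computed. Overlaps were checked against bedtools 2.31.1, and the locus ratios were tested on simulated lists. The software was Biopython 1.88, scipy 1.17.1, matplotlib 3.10.9, numpy 2.4.6, pandas 2.3.3 and Python 3.11.15. Promoter sequences came from a table of RefSeq GRCh38.p14 promoter windows, in which 4 of the 5 member genes were matched (KLK15, KLK3, KLK2 and KLK4).

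The rule for named items was all EZH2 peaks of the window, H3K27ac regions touching KLK3, KLK2 or their upstream 10 kb, the 5 regions of most tags per histone list, and the 2 of most tags per list in the rest of the cluster. The region on the KLK4 side was named beyond this rule after its values were seen. The members, lists and rules were chosen with earlier results of these data known, and the joining into loci, the log2 step of -0.5 and the minimum of 400 tags were chosen after seeing the data. The alternatives were other window edges, overlaps, scalings, score minimums and densities.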

Additional observations from a re-analysis of the deposited data

How the results depend on the processing

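No paired analysis was possible because each group held 1 library. Of 85 recomputed values, 56 stayed within counting error or within 1.5 times of a count. The absence of H3K27me3 from the kallikrein window and of EZH2 peaks on H3K27me3 there was the same under every alternative. No alternative could change it, because they removed regions, changed the overlap rule or widened the window by 10 kb, where no H3K27me3 region lay. These unchanged values are counted among the 56. The lower H3K27ac over the window held its direction throughout. Its log2 ratio of -0.71 became -1.07 when scaled to tags in listed regions, -1.003 per kb of listed region, -1.39 with the upper 50% of each list by score, and -0.77 against the median of the larger loci, an alternative chosen after seeing the data, as were all those for single loci. In the same order of scaling to listed tags and per kb, the KLK3 locus gave -1.19 and -0.91 (-0.89 against the median of the larger loci), the KLK2 locus -1.09 and -1.03, and the locus beyond KLK2 -0.92 and -1.04. The KLK4-side locus turned from 0.21 to -0.15 and -0.90. Scaling to listed tags shifts every H3K27ac locus by -0.35. Counted by gene, KLK3 gave -0.22 with 5 kb upstream, -0.83 with 20 kb and -0.23 by region midpoints, and KLK2 gave -0.40 with 20 kb, which takes in part of the KLK3 regions. The EZH2 log2 ratio of the window, -2.32, set 1 listed peak in shEZH2 against 4 in control and did not count sites without a call. Its size therefore depended on the calls. It became -1.26 scaled to listed tags and -0.047 per kb of listed peak. With the upper 50% of each list by score, EZH2 peaks in the window numbered 0 in shEZH2 and 1 in control, with 0 called again, and H3K27ac regions 2 and 10. That setting left no EZH2 ratio for the window and no H3K27ac difference between the windows in shEZH2. With lists of equal length, 1 control EZH2 peak was left. H3K27me3 regions in the rest of the control cluster numbered 29 of 50 with the upper 50% by score. The H3K27ac log2 difference between the windows was 6.83 in shEZH2 with the border moved 10 kb to the right. With it moved to the left the values were 2.99 in shEZH2 and 5.28 in control. The KLK4-side regions then fell in the rest of the cluster, and in shEZH2 alone a region touched both windows. With 9 to 17 counted tags per EZH2 peak, depth limits every statement on single EZH2 peaks.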
